A study of Solanum lycopersicum with 12 samples.

Results

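Transcript levels in the fruit wall of the tomato mutant cr were compared with those of the wild type (WT) at breaker, the stage at which a green fruit first shows colour. The comparison took the 3 cr and the 3 WT breaker libraries, 6 of the 12 in the study, and every feature with enough counts to be tested, 19664 of 35882. Samples were chosen by their labels and features by a filter on low counts over all groups, which did not use the genotype difference. A feature could pass that filter through a single group in which it was high. The lists and named genes below were chosen with earlier results of these data known, and some of the genes by the size of their difference.

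Tomato is a climacteric fruit, in which the start of colour change coincides with a burst of ethylene. Ethylene is made from methionine by ACC synthases (ACS) and ACC oxidases (ACO), bound by receptors and relayed through EIN2 to EIN3-like factors. With MADS-box, NAC and other regulators it is known to switch on enzymes that loosen the cell wall, make lycopene and release aroma volatiles, while the chloroplasts of the green fruit become chromoplasts and photosynthetic genes are turned down.

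Pericarp, the fleshy fruit wall, of Solanum lycopersicum was taken from WT, called A in the labels, and from the mutant cr, at mature green and at breaker, with 3 libraries in each of 4 groups. The labels name neither the cultivar nor the gene mutated in cr, and none was inferred. Whether the replicates of a group are separate plants or fruits is not stated, and the p-values below therefore describe variation among libraries that may be only technical. Fruit of both genotypes carried the same stage label, and a genotype difference at that stage and a difference in how far ripening had gone cannot be told apart, nor can fewer cells of a type and less RNA per cell.

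The 6 breaker libraries held between 17703054 and 19347924 counts. The first principal component of their log2 CPM (counts as a share of the library's scaled total) held 62.4% of the variance and separated the genotypes, with cr replicate 1 farthest out at 71.7 against 40.7 and 41.5 for the other cr libraries. That library was also the cr library farthest from the WT mean in 64.9% of the genes called higher and 57.3% of those called lower, so results that rest on it are given without it too. The fruit regulators TAGL1 and FUL2 and the fruit phytoene synthase PSY1 had counts in every library of the pericarp set, at 181 to 198, 84.1 to 97.5 and 9560.3 to 10262 CPM in WT. FUL1, also taken as a pericarp marker, had counts in every breaker library. These markers were not alike in the genotypes: TAGL1, FUL1 and PSY1 were called lower in cr and FUL2 was not, as given below. Transcripts of seed storage proteins were not shared evenly: a vicilin gene, Solyc09g082340, had 313 counts in WT replicate 3, 14 in cr replicate 1 and 0 in the other 4 breaker libraries. A 2S albumin gene, Solyc08g080490, had 101, 4 and 0 in the same libraries. At mature green the vicilin and the 2S albumin gene had 1253 and 279 counts in WT replicate 3, more than in any other library. That library enters the mature green and interaction values below. WT replicate 3 also stood apart on the second component (-45.2 against 24.4 and 18.3 for WT replicates 1 and 2). The part of seed tissue in any result was not tested.

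At breaker 4925 genes, 25.0% of those tested, had an adjusted p under 0.05 (quasi-likelihood F-test of edgeR, p-values adjusted by the Benjamini-Hochberg method over all genes tested). Of these 2760 (14.0%) were higher and 2165 (11.0%) lower in cr, and the log2 difference was 1 or more in size for 1322 and 577 of them. Counts of list and class members below are to be read beside these 14.0% and 11.0%. The genes lower in cr were the more abundant: together they held 28.2% of all counts in the WT libraries and 17.3% in the cr libraries, whereas the genes higher in cr went from 7.5% to 14.0%. Their median level over the 6 libraries was 5.27 log2 CPM against 3.54 for the genes higher in cr. With no normalization factors the split was 3969 higher and 1331 lower, or 74.9% higher against 56.0%, and the median over all genes moved to 0.133. Without cr replicate 1 the count was 3543, with 2030 higher and 1513 lower. The cr libraries all lay above the WT libraries in 19.3% of tested genes and all below in 19.0%.

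**Figure D1:**
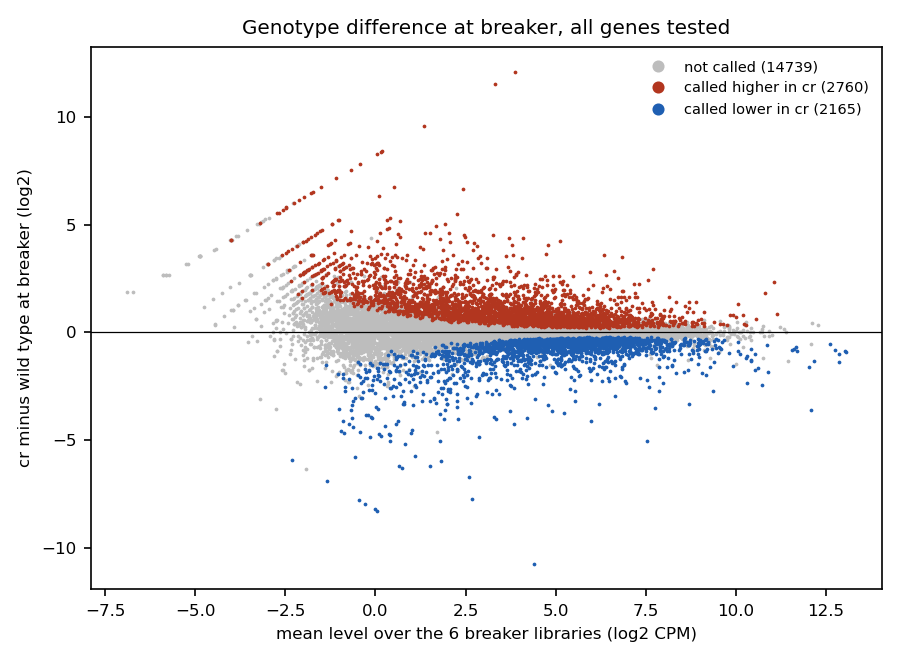
Each point is 1 of the 19664 genes tested; the horizontal axis gives its mean level over the 6 breaker libraries (log2 CPM) and the vertical axis the cr minus WT difference (log2). The 2165 genes called lower in cr (blue) reach the highest levels, and the 2760 called higher (red) lie mostly at low and middle levels.

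Of 12 regulators known to act at the start of ripening, 1 was called higher and 2 lower, a share close to the 25.0% of all genes tested (median -0.02 on the log2 scale, against 0.00 over all genes tested). NOR, a NAC factor that promotes ripening, stood at 539.6, 519.8 and 582 CPM in the WT libraries and at 438, 716 and 689 in the cr libraries, and these ranges overlapped (0.17 ± 0.29, adjusted p = 0.714). CNR, an SBP-box regulator, and DML2, the DNA demethylase known to act on ripening genes, overlapped between genotypes as well (-0.16 and 0.04 on the log2 scale). FUL1, a MADS-box partner of the ripening complex, was 1 of the 2 called lower. Its levels were 599.5, 611 and 592 CPM in WT and 215, 256 and 296 in cr, every cr library under every WT library (-1.23 ± 0.14, adjusted p = 7.37e-05), and its close relative FUL2 did not pass the test (0.10 ± 0.088, adjusted p = 0.426). TAGL1, a MADS-box gene of fruit expansion and ripening, was the other and ran from 181 to 198 CPM in WT and from 132 to 137 in cr (-0.49 ± 0.078, adjusted p = 0.000683). AP2a, known as a brake on ethylene production, was lower in all 3 cr libraries (176, 407 and 358 CPM against 489, 505 and 477) without passing the test (adjusted p = 0.132).

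The regulator called higher was GLK2, which promotes chloroplast development in green fruit. It stood at 0.298, 0.642 and 0.485 CPM in WT and at 2.94, 1.72 and 2.44 in cr, a low level in both with no overlap (2.30 ± 0.42, adjusted p = 0.00179). At mature green the genotypes did not differ in GLK2 beyond the test (-0.47, adjusted p = 0.408), and the difference between the stages passed (interaction 2.77, adjusted p = 0.00445).

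Among 7 synthesis genes described here none was higher and 1 was lower, and among 16 signalling and response genes 1 was higher and 2 lower. Both lists lay close to or under the 14.0% higher and 11.0% lower over all genes tested (0.0% and 14.3%, 6.25% and 12.5%). ACS2, the main ACC synthase of ripening fruit, had 315, 422 and 309.8 CPM in WT and 51.3, 129 and 162 in cr, every cr library lower, yet the difference did not pass (log2 -1.61 ± 0.64, adjusted p = 0.0831). With the 6 breaker libraries fitted alone it did (adjusted p = 0.0122). ACS4, its partner, had 151, 131 and 171 CPM in WT and 41.0, 72.4 and 95.3 in cr and was called lower by a narrow margin (-1.12 ± 0.38, adjusted p = 0.0484), a call lost without cr replicate 1 (-0.85, adjusted p = 0.163), without any other breaker library but cr replicate 3, and with DESeq2 (adjusted p = 0.0847). ACO1, the oxidase that releases ethylene, overlapped between genotypes (-0.12 ± 0.34, adjusted p = 0.835) and shares its position with an opposite-strand feature of 2135 counts.

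No ethylene receptor in the list passed the test. ETR1, a receptor, stood at 56.3 to 57.3 CPM in WT and at 55.9 to 60.5 in cr. NR, the receptor that rises in ripening fruit, had 1394, 1447 and 1474 CPM in WT and 402, 1145 and 1129.6 in cr with cr replicate 1 far below the other libraries (adjusted p = 0.178). EIN2 differed by 0.12 ± 0.10 (adjusted p = 0.459). E4 and E8, classic ethylene-responsive genes of ripening fruit, were both called lower. E4, a methionine sulfoxide reductase gene, went from 2738, 2641 and 1774 CPM in WT to 358, 1037 and 911 in cr (-1.63 ± 0.36, adjusted p = 0.00534). E8, among the most abundant transcripts of WT fruit, went from 12152, 11593 and 9674 to 3437, 7427 and 6744 CPM (-0.92 ± 0.30, adjusted p = 0.0395), and its call was lost without cr replicate 1 (-0.65, adjusted p = 0.128) and without cr replicate 3 or WT replicates 1 or 2 (adjusted p = 0.0561, 0.102 and 0.095), and it did not pass with no normalization factors (0.0506) or with the 6 breaker libraries alone (0.0596). EIL2, an EIN3-like factor, was slightly higher (0.35 ± 0.12, adjusted p = 0.0438), a call lost without any breaker library but WT replicate 1 and cr replicate 3, with the highest adjusted p at 0.125, and with relative log expression scaling factors or the 6 breaker libraries alone (0.0521 and 0.121).

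**Figure D2:**
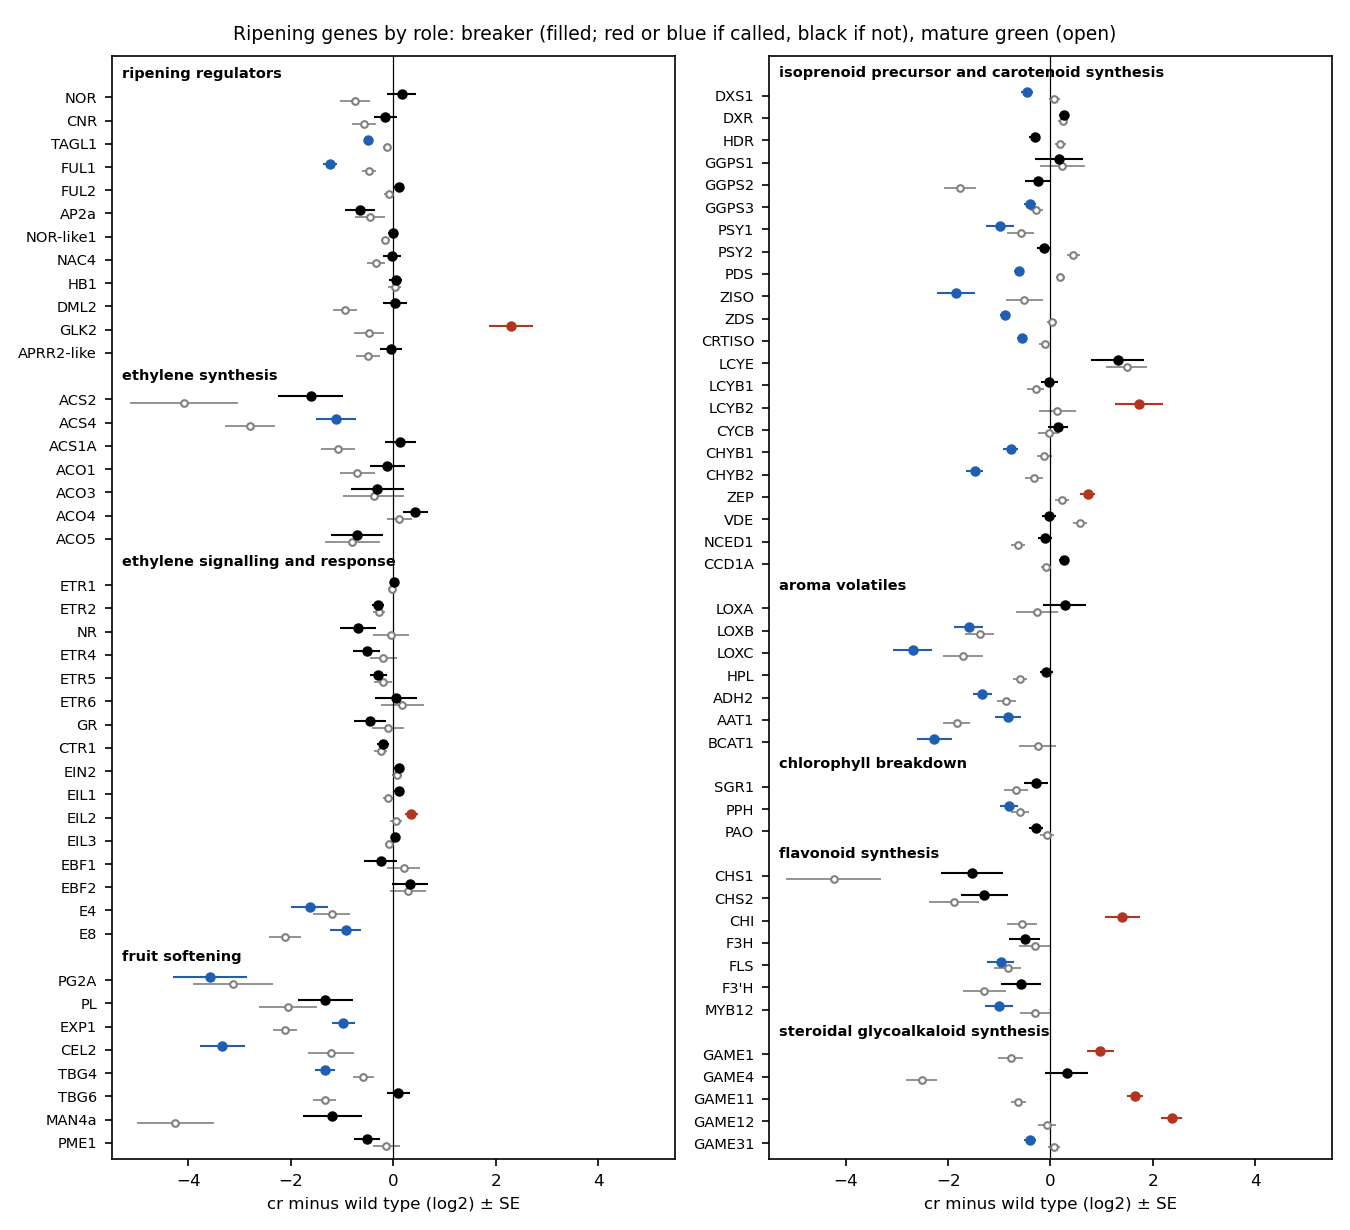
The horizontal axis gives the cr minus WT difference of each gene on the log2 scale with its SE, grouped by role; filled points are breaker (red called higher, blue called lower, black not called) and open points mature green. Softening, carotenoid and aroma genes lie mostly to the left of 0 at breaker, down to -3.58 for PG2A, while most regulators and ethylene receptors lie close to 0.

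Of 8 cell wall softening genes none was higher and 4 were lower (median -1.26), beside 11.0% lower over all genes tested. The cr libraries all lay under the WT libraries in 7, as they did in 19.0% of all genes tested. At mature green 4 of the 8 were called lower (median -1.70), beside 2.62% of all genes tested. These were not the same 4, since the mannanase MAN4a was called there (-4.25, adjusted p = 0.00899) and not at breaker. The interaction called 3 relatively higher at breaker and 1 relatively lower, beside 8.53% and 4.62% of all genes tested. Their summed level ran from 20079.9 to 22212 CPM in the WT libraries and from 4739 to 8868 in the cr libraries. PG2A (Solyc10g080210, chromosome 10, 60670766 to 60676673, minus strand, SL4.0 build) encodes the fruit polygalacturonase that breaks down pectin. It had 7987, 6627 and 9348 CPM in WT and 233, 696 and 1074 in cr, every cr library far below the lowest WT library (-3.58 ± 0.73, adjusted p = 0.00327). Per transcript length its mean level was 4702 FPKM in WT, close to that of PSY1 (5051 FPKM), and 392 FPKM in cr, against 2551 for PSY1. CEL2, an endoglucanase, had 811, 755 and 709 CPM in WT and 67.7, 69.9 and 87.7 in cr, where the 3 libraries lay close together (-3.34 ± 0.43, adjusted p = 0.000159).

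EXP1, the ripening expansin that loosens walls, had 1928, 2178 and 1717 CPM in WT and 814, 1064 and 1078 in cr (-0.98 ± 0.23, adjusted p = 0.00695). TBG4, a galactosidase that trims pectin side chains, had 185, 107 and 107 CPM in WT and 56.0, 54.3 and 48.3 in cr (-1.33 ± 0.20, adjusted p = 0.00048). PL, a pectate lyase whose loss is known to keep fruit firm, was lower in all 3 cr libraries, 882, 2038 and 1868 CPM against 3935, 4672 and 3394, without a call (-1.33 ± 0.54, adjusted p = 0.0908). With the 6 breaker libraries fitted alone PL passed (adjusted p = 0.015). MAN4a, a mannanase, and PME1, a pectin methylesterase, were lower in every cr library and did not pass either (-1.19, adjusted p = 0.149, and -0.51, adjusted p = 0.168). TBG6, a galactosidase of green fruit, overlapped between genotypes (0.10 ± 0.22, adjusted p = 0.783) and overlaps an opposite-strand feature of 3751 counts.

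Transcripts of the enzymes that lead to lycopene were lower in cr. Of 22 genes of isoprenoid precursors and carotenoids, 9 were lower and 2 higher (median -0.19), beside 11.0% and 14.0% over all genes tested. Their summed level was 15979 to 16730.0 CPM in WT and 6148 to 9908 in cr. PSY1 (Solyc03g031860, chromosome 3, 4234654 to 4238638, plus strand), which makes phytoene in ripening fruit, had 9560.3, 9569.6 and 10262 CPM in WT and 2999.5, 6051 and 5855 in cr (-0.98 ± 0.27, adjusted p = 0.0184). Without cr replicate 1 it was at -0.72 with an adjusted p of 0.0555. The enzymes that turn phytoene into lycopene were called lower at each step listed. PDS, phytoene desaturase, had 339.5, 373 and 367 CPM in WT and 231, 249.5 and 225 in cr (-0.61 ± 0.089, adjusted p = 0.000354). ZISO, the isomerase that follows it, had 2942, 2989 and 2950.4 CPM in WT and 326, 980.4 and 1165 in cr (-1.85 ± 0.37, adjusted p = 0.00292), with WT libraries nearly equal and cr libraries spread over a wide range. ZDS, zeta-carotene desaturase, had 334, 367 and 351 CPM in WT and 186, 188 and 197 in cr (-0.88 ± 0.10, adjusted p = 7.31e-05), and CRTISO, the last isomerase, differed by -0.55 ± 0.10 (adjusted p = 0.00174). DXS1, which feeds the plastid isoprenoid pathway, and GGPS3, which makes the precursor of phytoene, were lower by smaller amounts (-0.46 and -0.41, adjusted p = 0.0119 and 0.0216). Without WT replicate 2 both calls were lost (adjusted p = 0.0556 and 0.0885), and that of GGPS3 also without cr replicate 1 (adjusted p = 0.087).

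After lycopene the picture was mixed. The beta-carotene hydroxylases CHYB1 and CHYB2 were lower (-0.78 and -1.48, adjusted p = 0.00194 and 6.33e-05). ZEP, the zeaxanthin epoxidase of leaf-type xanthophyll synthesis, was higher, with 214, 169.5 and 140.1 CPM in cr against 101, 111 and 105 in WT (0.73 ± 0.14, adjusted p = 0.00232). LCYB2, a lycopene cyclase, was higher at a very low level (0.697 to 1.57 CPM against 0.242 to 0.357, adjusted p = 0.0169), a call lost without cr replicate 1 or WT replicate 3 (adjusted p = 0.0838 and 0.0548). The chromoplast cyclase CYCB did not pass (0.15 ± 0.20, adjusted p = 0.63), nor did NCED1, which commits carotenoids to abscisic acid (-0.11 ± 0.14, adjusted p = 0.616).

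Of 7 aroma genes none was higher and 5 were lower (median -1.33), beside 14.0% higher and 11.0% lower over all genes tested. Their summed level was 17816 to 19743 CPM in WT and 6532 to 9502 in cr. At mature green 5 of the 7 were called lower (median -0.86), beside 2.62% of all genes tested. The interaction called 1 of the 7, relatively lower at breaker, beside 4.62% of all genes tested. LOXC, the lipoxygenase that starts the path to green-leaf and fruit volatiles, had 1081, 1062 and 1283 CPM in WT and 84.3, 185 and 260.5 in cr, with no overlap (-2.69 ± 0.38, adjusted p = 0.000271). BCAT1, a branched-chain aminotransferase, had 181, 216 and 202 CPM in WT and 29.8, 46.7 and 47.8 in cr (-2.27 ± 0.34, adjusted p = 0.000453). ADH2, the alcohol dehydrogenase of ripe fruit, had 7872, 7056 and 4609 CPM in WT and 2768, 2485 and 2518 in cr (-1.33 ± 0.19, adjusted p = 0.000347), and LOXB, a lipoxygenase, and AAT1, an alcohol acyltransferase that forms esters, were lower too (-1.60 and -0.83, adjusted p = 0.00125 and 0.0312). AAT1 lost its call without cr replicate 1 (-0.62, adjusted p = 0.117) and without WT replicates 1 or 2 (adjusted p = 0.0808 and 0.0737). LOXB and AAT1 overlap opposite-strand features of 9988 and 5764 counts. Hydroperoxide lyase HPL, which acts after LOXC, did not pass (-0.08 ± 0.13, adjusted p = 0.688). In the deposited domain classes, all 7 called genes of the 12 tested lipoxygenases were lower. Among them Solyc01g099150 went from 116, 81.4 and 53.7 CPM in WT to 4.71, 9.49 and 13.3 in cr (-3.20 ± 0.35, adjusted p = 5.26e-05).

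The next lists are small, and their counts stand beside 14.0% higher and 11.0% lower over all genes tested. Chlorophyll breakdown had 1 of 3 genes lower and none higher. SGR1, the stay-green protein that triggers chlorophyll breakdown, overlapped between genotypes at 577, 647 and 710.3 CPM in WT and 487, 497 and 609.8 in cr (-0.28 ± 0.24, adjusted p = 0.424), and PPH, pheophytinase, was lower (-0.81 ± 0.18, adjusted p = 0.00536). PAO, the next enzyme, lay lower in every cr library without passing (adjusted p = 0.14). Among flavonoid genes CHS1, a chalcone synthase of the fruit peel, had 333, 259 and 410.3 CPM in WT and 61.8, 91.5 and 194 in cr. CHS2, its partner, had 646, 526 and 559.5 CPM in WT and 185, 188 and 335 in cr. Every cr library lay under every WT library for both, but they narrowly missed the threshold (adjusted p = 0.0818 and 0.0554) and passed with the 6 breaker libraries alone (adjusted p = 0.0183 and 0.00479). MYB12, their regulator, and FLS, flavonol synthase, were lower (-1.0 and -0.97), calls that were lost without cr replicate 1 (adjusted p = 0.063 and 0.0679) or cr replicate 2 (0.0686 and 0.0636), and for MYB12 also without WT replicates 1 or 3 (0.0705 and 0.0539). Chalcone isomerase CHI was the flavonoid gene called higher (1.40 ± 0.34, adjusted p = 0.00866). Steroidal glycoalkaloid genes, which make the bitter tomatine of green fruit, had 3 of 5 tested higher and 1 lower. GAME11, a dioxygenase, had 41.5, 37.5 and 40.1 CPM in cr and 10.7, 11.0 and 16.2 in WT (1.65 ± 0.16, adjusted p = 2.16e-05), and GAME12, known as a transaminase of the pathway, had 23.2, 17.9 and 16.9 CPM in cr and 3.10, 3.09 and 5.09 in WT (2.37 ± 0.21, adjusted p = 1.1e-05). GAME1, a galactosyltransferase of the pathway, was higher (0.97 ± 0.27, adjusted p = 0.0174), and GAME31, which acts on tomatine late in the pathway, was lower (-0.40 ± 0.12, adjusted p = 0.0262). Both calls were lost without cr replicate 1 (adjusted p = 0.051 and 0.0843) and without WT replicate 2, that of GAME1 also without cr replicate 3 and that of GAME31 without WT replicate 1 or cr replicate 2.

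**Figure D3:**
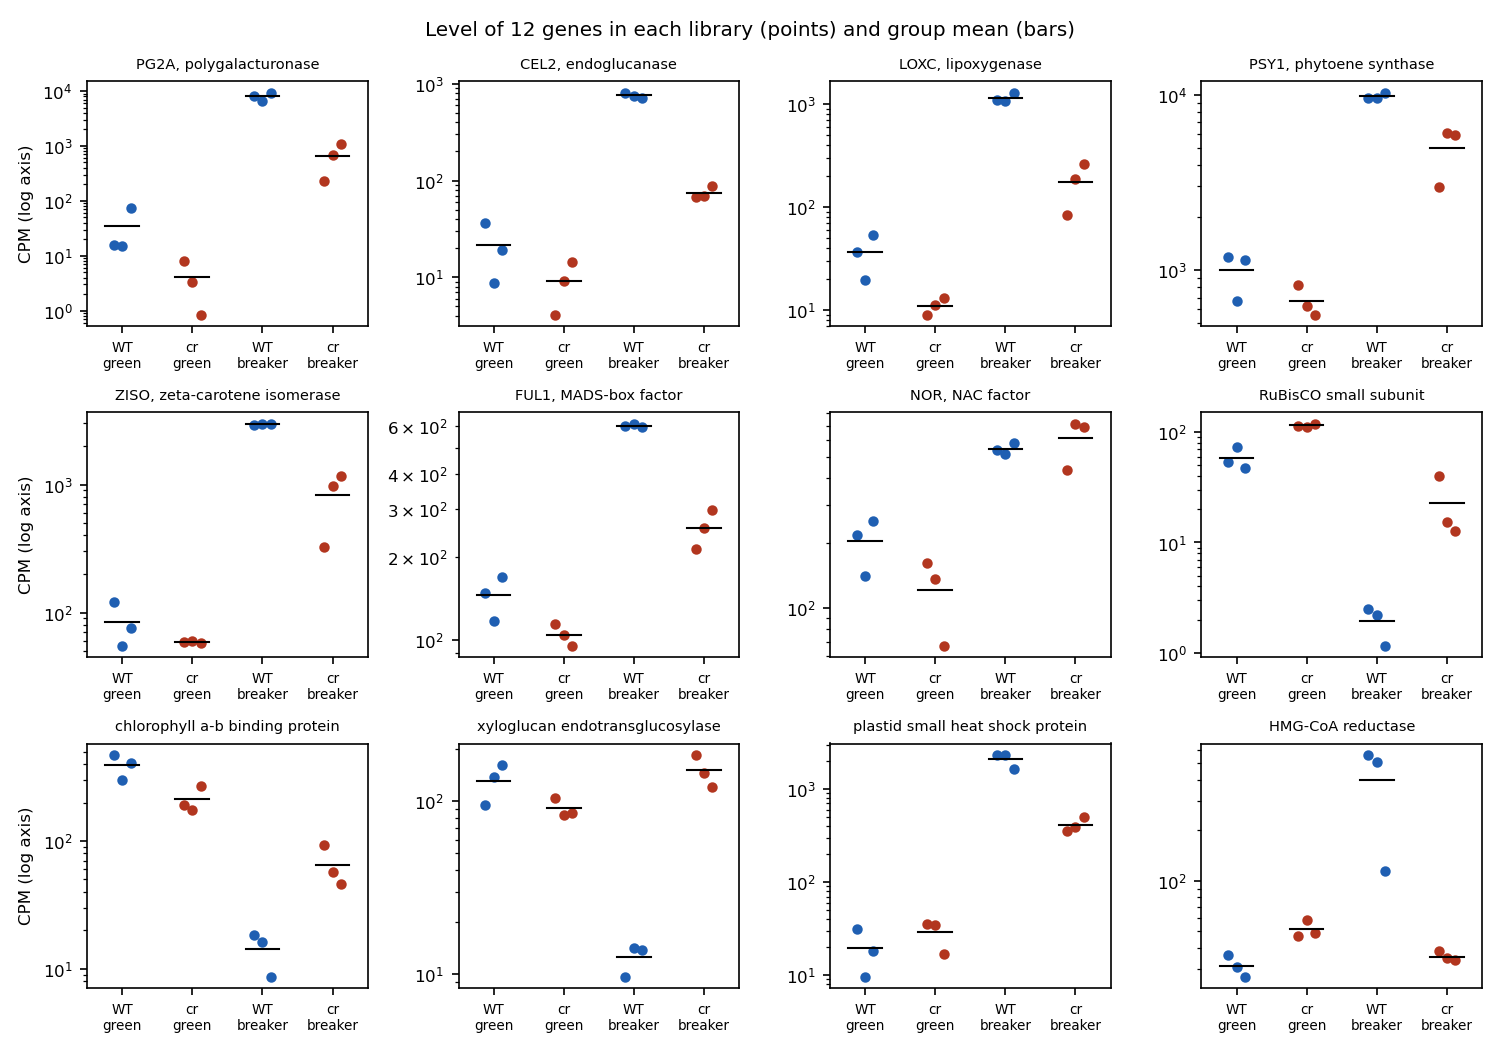
Each point is the level of a gene in 1 library (CPM, log axis), with the group mean as a bar, for 12 genes in WT (blue) and cr (red) at mature green and at breaker. The cr breaker libraries lie under the WT breaker libraries for PG2A, CEL2, LOXC, PSY1, ZISO and FUL1, overlap them for NOR, and lie above them for the RuBisCO, chlorophyll-binding and xyloglucan endotransglucosylase genes.

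Many genes of photosynthesis were higher in cr, beside 14.0% of all genes tested. Of 46 photosystem subunits and assembly factors tested, 29 were higher and 1 lower (median 0.77), of 34 chlorophyll-binding antenna proteins 15 were higher and 2 lower (1.39), and of 12 carbon fixation genes 5 were higher and 1 lower (0.73). Without cr replicate 1 the numbers called higher were 24, 10 and 5. At mature green 5, 0 and 6 of these genes were called higher (medians 0.46, 0.18 and 0.72) and 0 lower, beside 1.72% and 2.62% of all genes tested. The interaction called 9, 8 and 1 relatively higher at breaker, and 1, 0 and 1 relatively lower, beside 8.53% and 4.62% of all genes tested. The antenna list summed to 579 to 649.5 CPM in the WT libraries and 888 to 1406 in the cr libraries. The antenna gene Solyc03g005760, whose protein binds the chlorophylls that harvest light, had 18.3, 16.1 and 8.6 CPM in WT and 92.4, 57.7 and 46.2 in cr, with cr replicate 1 the highest (2.19 ± 0.31, adjusted p = 0.000299). Photosystem I subunit O, Solyc06g074200, had 16.7, 18.0 and 10.9 CPM in WT and 63.2, 67.3 and 50.1 in cr (1.98 ± 0.17, adjusted p = 8.81e-06). Small subunits of RuBisCO, the enzyme that fixes carbon dioxide, were among the largest differences: Solyc02g063150 had 2.50, 2.22 and 1.15 CPM in WT and 40.2, 15.2 and 12.8 in cr (3.54 ± 0.44, adjusted p = 0.00012). The more abundant small subunit gene Solyc03g034220 had 244, 325 and 209 CPM in WT and 947, 614 and 524 in cr (1.42 ± 0.21, adjusted p = 0.000345). Phosphoribulokinase, Solyc08g076220, which regenerates the acceptor of carbon dioxide, differed by 1.51 ± 0.13 (adjusted p = 1.1e-05). RuBisCO small subunits and antenna proteins come from families of near-identical genes, among which the counting could split reads.

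Chlorophyll synthesis had 7 of 28 genes higher and 5 lower (median 0.03; 3 higher without cr replicate 1 and 4 without WT replicate 1, and 3 lower without WT replicate 1 or 2 or cr replicate 2 or 3). Geranylgeranyl reductase Solyc03g115980, which makes the phytol tail, was higher at 113, 67.4 and 78.1 CPM against 51.6, 43.7 and 41.9 (0.92 ± 0.16, adjusted p = 0.00144). The magnesium chelatase subunit Solyc04g015750, at the branch point to chlorophyll, was lower at 172, 156 and 193 against 335, 284 and 299.7 CPM (-0.82 ± 0.14, adjusted p = 0.00108). Protochlorophyllide reductase Solyc07g054210 was lower too (-0.66 ± 0.12, adjusted p = 0.00128). Plastid-type ribosomal proteins had 5 higher and 13 lower of 90, with 8 lower without WT replicate 1 or 2 and 18 without WT replicate 3. All genes tested had 14.0% higher and 11.0% lower.

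Many heat shock proteins were lower in cr, beside 11.0% of all genes tested. These chaperones hold and refold other proteins, and several are known to accumulate in ripening tomato. Of 21 small heat shock proteins none was higher and 13 were lower (median -0.99), and their summed level was 5793 to 10263 CPM in WT and 2846 to 3978 in cr. The plastid small heat shock protein Solyc03g082420 had 2345, 2321 and 1634 CPM in WT and 351, 387 and 496 in cr (-2.35 ± 0.36, adjusted p = 0.000507). WT replicate 3 was the lowest WT library for Solyc03g082420, for Solyc05g014280, another plastid member (201, 115 and 39.6 CPM in WT and 4.61, 9.54 and 6.25 in cr, -4.13 ± 0.49, adjusted p = 9.08e-05), and for the class II gene Solyc08g062340 (414, 366 and 126 CPM in WT and 39.9, 74.8 and 81.5 in cr). In none of these did the groups overlap. Of 36 HSP70, HSP90 and HSP101 chaperones 15 were lower and 1 higher (-0.49). The stromal HSP70 Solyc11g020040 had 782, 573 and 389.9 CPM in WT and 175, 162 and 161 in cr (-1.81 ± 0.26, adjusted p = 0.000293), while the heat shock cognate gene Solyc09g010630 was the member called higher (0.83 ± 0.18, adjusted p = 0.00551). Without cr replicate 1, 9 small heat shock and 12 large chaperone genes were lower. Of 21 heat stress transcription factors 3 were lower and 1 higher (5 lower without cr replicate 3), and Solyc02g090820 had 114, 90.0 and 79.0 CPM in WT and 42.6, 39.2 and 46.3 in cr (-1.14 ± 0.13, adjusted p = 5.39e-05). DnaJ co-chaperones had 8 higher and 14 lower of 103, with 6 lower without cr replicate 1 or WT replicate 2, 9 without cr replicate 3 or WT replicate 1, and 5 higher without WT replicate 2.

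Wall enzymes were also counted by family, beside 14.0% higher and 11.0% lower over all genes tested. Of 37 polygalacturonases and pectate lyases 12 were higher and 3 lower, and PG2A was 1 of the 3. Of 43 pectinesterases and pectin acetylesterases 11 were higher and 7 lower, of 13 expansins 3 and 1, and of 25 xyloglucan endotransglucosylases, which cut and rejoin wall glucans, 6 and 6 (3 higher without WT replicate 3). The xyloglucan endotransglucosylase Solyc07g009380 had 9.59, 14.2 and 13.8 CPM in WT and 186, 145 and 121 in cr (3.59 ± 0.23, adjusted p = 1.27e-06). Pectate lyase Solyc06g083580 had 7.21, 8.64 and 11.4 CPM in WT and 33.6, 39.9 and 45.9 in cr (2.13 ± 0.16, adjusted p = 4.22e-06), whereas pectate lyase Solyc09g091430 had 133, 81.5 and 121 CPM in WT and 13.2, 36.9 and 37.3 in cr (-1.94 ± 0.32, adjusted p = 0.000806). The expansin Solyc02g088100 had 5.90, 7.18 and 13.2 CPM in WT and 49.0, 22.2 and 35.3 in cr (2.02 ± 0.30, adjusted p = 0.000406), opposite in sign to EXP1. Pectin methylesterase Solyc03g123630 differed by 1.43 ± 0.30 and the probable polygalacturonase Solyc08g082170 by -1.80 ± 0.11 (adjusted p = 0.00414 and 6.72e-07).

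Tubulins, the subunits of microtubules, were higher in 10 of 14 tested cases and lower in none (median 0.47); this list was drawn up after the tubulin domain class had been seen, and 5 were higher without WT replicate 1 and 6 without cr replicate 3. The alpha-tubulin Solyc04g077020 had 570.3, 729 and 695 CPM in WT and 1167, 1079 and 1212 in cr (0.79 ± 0.13, adjusted p = 0.000949). Kinesins, motors that run on microtubules, were higher in 14 of 50 cases and lower in 4, with 6 to 10 higher when a single breaker library was left out and 1 or 2 lower without WT replicate 3 or any 1 cr library. Solyc10g054080 had 5.42, 5.49 and 8.78 CPM in WT and 18.2, 16.5 and 20.4 in cr (1.49 ± 0.18, adjusted p = 9.44e-05), and Solyc09g075480 had 65.4, 65.1 and 75.2 CPM in WT and 10.1, 18.7 and 21.2 in cr (-2.04 ± 0.25, adjusted p = 0.000109). Core histones, around which DNA is wound, were higher in 21 of 50 cases and lower in none (0.45), 15 were higher without cr replicate 1 and 13 without WT replicate 1. Histone H3 gene Solyc10g008910 had 12.6, 23.8 and 14.6 CPM in WT and 38.7, 37.5 and 43.0 in cr (1.22 ± 0.19, adjusted p = 0.000591), and histone H4 gene Solyc11g072860 differed by 1.10 ± 0.13 (adjusted p = 9.79e-05). Histone genes are near-identical copies, so reads may be split among them. Cyclins and replication proteins had 4 of 38 higher and 8 lower (10.5% and 21.1%, beside 14.0% and 11.0% over all genes tested). Cyclin A3.1, Solyc12g088530, had 4.88, 4.55 and 6.18 CPM in WT and 12.8, 12.8 and 11.3 in cr (1.24 ± 0.16, adjusted p = 0.000159), but Solyc11g040120, annotated as the replication licensing factor MCM2, had 135, 145 and 153 CPM in WT and 51.0, 73.2 and 84.0 in cr (-1.06 ± 0.14, adjusted p = 0.000177). Solyc08g005400, annotated as CMT2, a DNA methyltransferase of silent chromatin, was higher (0.95 ± 0.14, adjusted p = 0.000475).

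Lists of the fruit surface and of defence held more genes higher than lower in cr, where all genes tested had 14.0% higher and 11.0% lower. Of 47 GDSL lipases, some of which polymerize cutin, 12 were higher and 2 lower. Of 42 wax and cutin genes 11 were higher and 3 lower, and of 30 lipid-transfer proteins, which carry lipids to the wall, 11 were higher and 1 lower. The summed level of the wax and cutin list went the other way, at 2138.5 to 2417.7 CPM in WT and 1403.0 to 1786.2 in cr. Summed levels overlapped between genotypes for GDSL lipases (628.7 to 700.4 CPM in WT, 540.4 to 679.8 in cr) and lipid-transfer proteins (359.8 to 515.4 and 515.1 to 703.8). GDSL lipase Solyc03g121180 had 0.834, 2.04 and 7.81 CPM in WT and 100, 51.9 and 46.2 in cr (4.22 ± 0.53, adjusted p = 0.000124). Lipid-transfer protein Solyc10g075070 had 11.7, 23.6 and 35.7 CPM in WT and 197, 144 and 172 in cr (2.85 ± 0.45, adjusted p = 0.000637). ECERIFERUM 3 (Solyc03g117800), which makes wax alkanes, had 5.30, 15.2 and 48.0 CPM in WT and 215, 112 and 111 in cr (2.68 ± 0.62, adjusted p = 0.00676), and the cytochrome P450 Solyc05g055400, annotated as 77A2, had 1.25, 1.63 and 5.51 CPM in WT and 55.7, 19.6 and 16.1 in cr (3.45 ± 0.71, adjusted p = 0.00352). WT replicate 3, the WT breaker library with seed storage transcripts, was the highest WT library in all 4. The cr library with fewer such transcripts, cr replicate 1, was the highest cr library in all 4. The 3-ketoacyl-CoA synthase Solyc05g009270, which elongates wax acids, went the other way, with 38.1, 37.2 and 39.9 CPM in WT and 3.95, 2.25 and 7.27 in cr (-3.10 ± 0.35, adjusted p = 6.11e-05). Of the epidermal markers, CD2, a regulator of cutin, was lower (-0.42, adjusted p = 0.0213, but 0.0794 without WT replicate 3, 0.0791 without cr replicate 2 and 0.122 with no normalization factors) and CD1, a cutin synthase, did not pass (1.40, adjusted p = 0.594), and their summed level ran from 104 to 137 CPM in WT and from 81.6 to 94.4 in cr. The part of epidermal cells was not tested.

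Of 71 defence proteins 26 were higher and 2 lower (median 0.55; 16 higher without cr replicate 1), and of 25 class III peroxidases, which cross-link walls, 9 were higher and 1 lower (5 higher without WT replicate 1 or 2). All genes tested had 14.0% higher and 11.0% lower. The summed level of the defence list was 1286 to 1597 CPM in WT and 2003 to 2719 in cr. STH-2-like protein Solyc09g090980 had 81.8, 51.8 and 45.8 CPM in WT and 446, 231 and 284 in cr (2.42 ± 0.33, adjusted p = 0.000238), and osmotin-like Solyc08g080650 had 65.5, 52.8 and 49.4 CPM in WT and 379.7, 245 and 164 in cr (2.23 ± 0.28, adjusted p = 0.000132). The glucanase Solyc04g016470 had 8.34, 11.0 and 10.3 CPM in WT and 48.8, 44.8 and 40.7 in cr (2.18 ± 0.17, adjusted p = 5.31e-06). Peroxidase Solyc02g079500 had 0.476, 0.934 and 2.18 CPM in WT and 31.4, 18.3 and 25.0 in cr (4.38 ± 0.59, adjusted p = 0.000209). Chitinase Solyc10g017980, which cuts fungal chitin, was 1 of the 2 lower (-2.08 ± 0.58, adjusted p = 0.02), a call lost without WT replicate 2 or any 1 cr library (adjusted p up to 0.0752). Genes of xylem and lignin, taken as markers of vascular tissue, had 16 higher and 7 lower of 43 (median 0.53; 10 and 3 without cr replicate 1), with a summed level of 844 to 966 CPM in WT and 658 to 778 in cr, and 74 and 68 of its 133 genes listed had no count in WT and in cr. Genes of seed storage and late embryogenesis had 2 higher and 6 lower of 32 (3 lower without WT or cr replicate 2). The summed level of that list was 2099 to 2305 CPM in WT and 3306 to 4881 in cr, and 49 and 56 of its 113 genes listed had no count. The late embryogenesis gene Solyc09g075210 went from 876, 815 and 653 CPM in WT to 3142, 3408 and 1894 in cr (1.85 ± 0.24, adjusted p = 0.000165). The part of vascular or seed tissue in these differences was not tested.

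**Figure D4:**
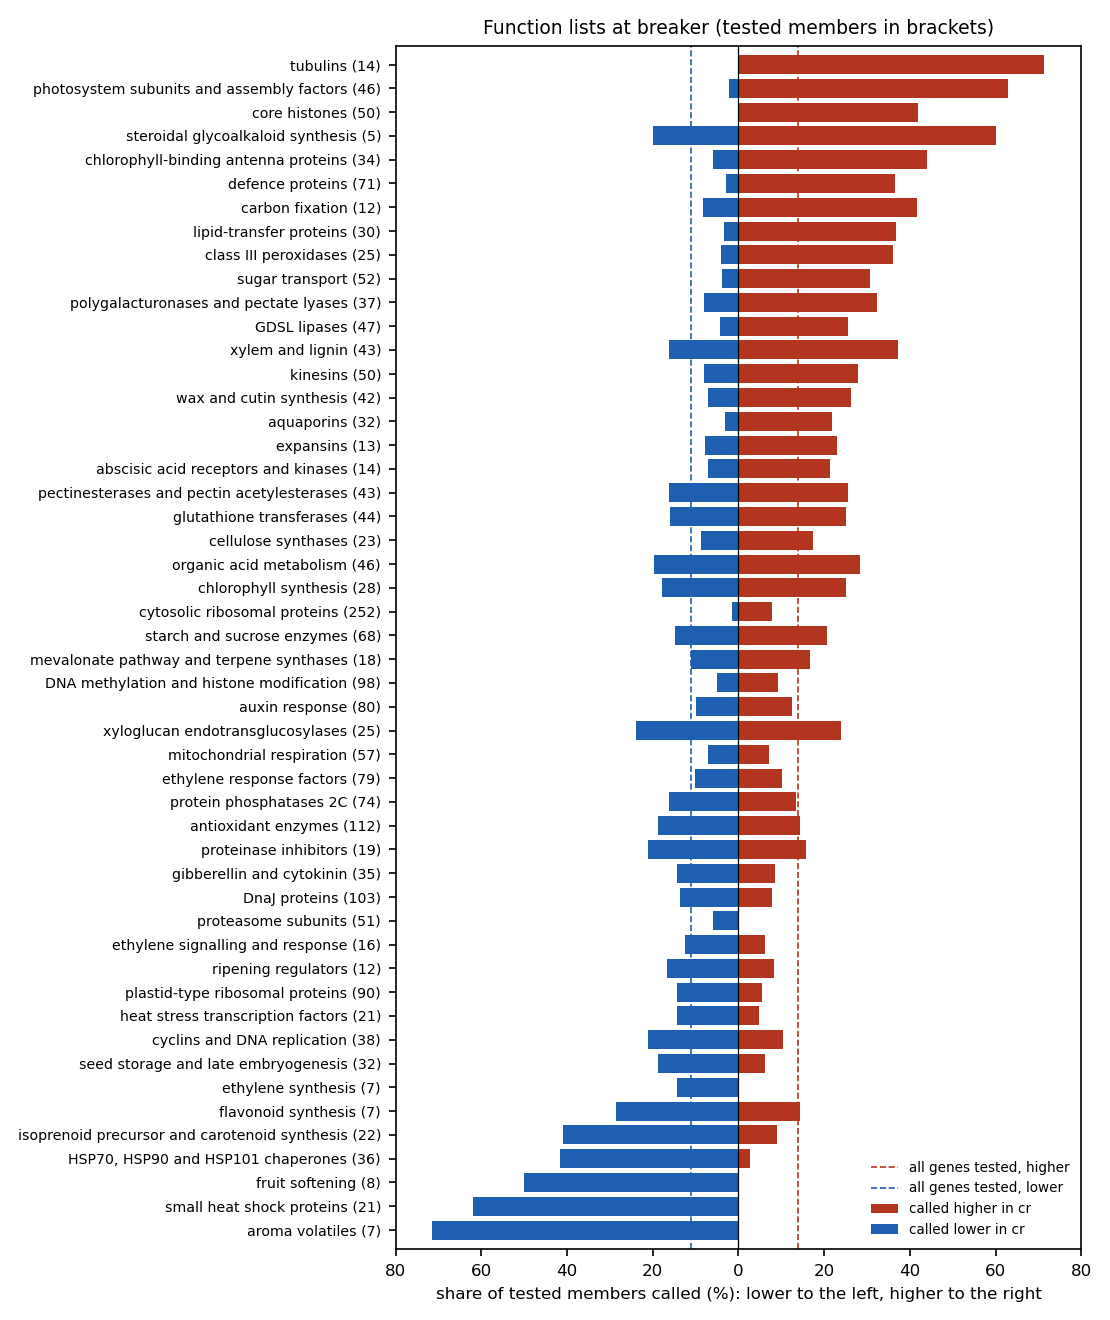
Bars give the share of tested members of each function list called higher (red, to the right) or lower (blue, to the left) in cr at breaker, with the number tested in brackets and dashed lines at 14.0% and 11.0%, the shares over all genes tested. Tubulins, photosystem subunits, histones and antenna proteins reach far past the line to the right, and aroma, small heat shock, softening and carotenoid genes to the left.

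Genes of sugars and acids, which set fruit taste, were called in both directions, beside 14.0% higher and 11.0% lower over all genes tested. Of 68 starch and sucrose enzymes 14 were higher and 10 lower, or 6 lower without cr replicate 1. The vacuolar acid invertase Solyc03g083910, which splits sucrose in ripening fruit, had 12435, 11191 and 8645 CPM in WT and 2432, 3914 and 6089 in cr (-1.38 ± 0.36, adjusted p = 0.0145), and without cr replicate 1 it was at -1.11 with an adjusted p of 0.0558. The cell wall invertase Solyc09g010080 was higher, with 116, 67.2 and 134 CPM in cr and 49.7, 33.6 and 45.1 in WT (1.30 ± 0.25, adjusted p = 0.00228). Of 52 sugar transporters 16 were higher and 2 lower. Organic acid genes had 13 higher and 9 lower of 46, or 5 lower without WT replicate 2. Phosphoenolpyruvate carboxylase Solyc07g062530, which supplies carbon for malate and citrate, had 539.9, 554 and 730.1 CPM in WT and 1458, 1497 and 1629 in cr (1.33 ± 0.14, adjusted p = 3.31e-05). Its activating kinase Solyc04g009910 was higher as well (1.15 ± 0.14, adjusted p = 0.000127). The HMG-CoA reductase Solyc02g038740, the regulated step of the cytosolic isoprenoid pathway, had 564, 508 and 115 CPM in WT and 38.0, 34.6 and 33.8 in cr, with WT replicate 3 well under the other WT libraries and still above every cr library (-3.48 ± 0.43, adjusted p = 0.000112).

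Hormones other than ethylene were covered by 4 lists. Auxin-response genes had 10 higher and 8 lower of 80, gibberellin and cytokinin genes 3 and 5 of 35, abscisic acid receptors and kinases 3 and 1 of 14, and protein phosphatases 2C, which include brakes on abscisic acid, 10 and 12 of 74. Of the gibberellin and cytokinin genes 2 were lower without WT replicate 2 and 3 without cr replicate 1, and 5 were higher without cr replicate 2. Gibberellin 2-oxidase Solyc07g056670, which inactivates gibberellin, had 209, 190.0 and 88.1 CPM in WT and 16.7, 33.9 and 62.1 in cr (-2.11 ± 0.49, adjusted p = 0.00727). Cytosolic ribosomal proteins had 20 higher and 4 lower of 252 (7.94% and 1.59%, under the shares over all genes tested). The higher count was 55 with no normalization factors and 10 without cr replicate 1. Without WT replicate 3 there were 16 higher and 20 lower. Proteasome subunits had none higher and 3 lower of 51 (6 lower without WT mature green replicate 3).

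Transcription factors were read from the protein-domain classes in the deposited annotation, which gave 184 classes with at least 10 tested genes. Shares over all genes tested were 14.0% higher and 11.0% lower. Basic helix-loop-helix factors (class HLH) had 17 higher and 2 lower of 62. Solyc05g006650 of that class had 46.2, 62.1 and 69.4 CPM in WT and 163, 143 and 139 in cr (1.32 ± 0.15, adjusted p = 7.33e-05), and Solyc10g079050 was lower (-1.93 ± 0.21, adjusted p = 5.77e-05). Homeobox and CCT classes each had 8 higher and 3 lower of 22. Myb domain genes had 20 higher and 11 lower of 103. The MYB1R1 gene Solyc03g113620 was higher, at 142, 47.1 and 43.3 CPM against 13.6, 10.2 and 14.2 (2.61 ± 0.41, adjusted p = 0.000637), and LATE ELONGATED HYPOCOTYL (Solyc10g005080), a part of the circadian clock, was lower (-1.54 ± 0.22, adjusted p = 0.000336). B-box zinc fingers, several of which act in light signalling, had none higher and 4 lower of 10. The CONSTANS-like gene Solyc02g089500 had 99.1, 119 and 136 CPM in WT and 35.3, 52.7 and 53.0 in cr (-1.33 ± 0.21, adjusted p = 0.000595), and Solyc12g089240 was lower by a smaller amount (-0.71 ± 0.17, adjusted p = 0.00823). HY5 (Solyc08g061130), a bZIP factor that promotes light responses, was lower (-0.90 ± 0.23, adjusted p = 0.0128, but 0.0663 without WT replicate 1), in a class with 9 higher and 3 lower of 40.

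WRKY factors had 3 higher and 8 lower of 44, with Solyc02g021680 at 46.2, 44.4 and 47.9 CPM in WT and 11.2, 21.0 and 25.1 in cr (-1.27 ± 0.31, adjusted p = 0.01). AP2 domain genes, which include the ethylene response factors, had 7 higher and 12 lower of 79. Matched on their descriptions instead, ethylene response factors had 8 higher and 8 lower of 79 (10.1% each). Those counts ran from 5 to 12 higher and from 4 to 10 lower when a single library was left out. NAC factors (class NAM) had 7 higher and 5 lower of 42, with Solyc10g055760 lower (-1.94 ± 0.41, adjusted p = 0.00415). The MADS-box class SRF-TF had 3 higher and 2 lower of 23. Its lowest difference was -0.60, so it does not hold every MADS-box gene, and FUL1 (-1.23) is not in it. The separate class K-box, whose lowest difference was -1.23, had 2 higher and 2 lower of 13. Beyond transcription factors, 16 of 40 subtilisin-like proteases (class Peptidase_S8) and 11 of 27 family 17 glucanases were higher. Protein kinases, the largest class named here, had 101 higher and 58 lower of 513 (19.7% and 11.3%, beside 14.0% and 11.0% over all genes tested).

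**Figure D5:**
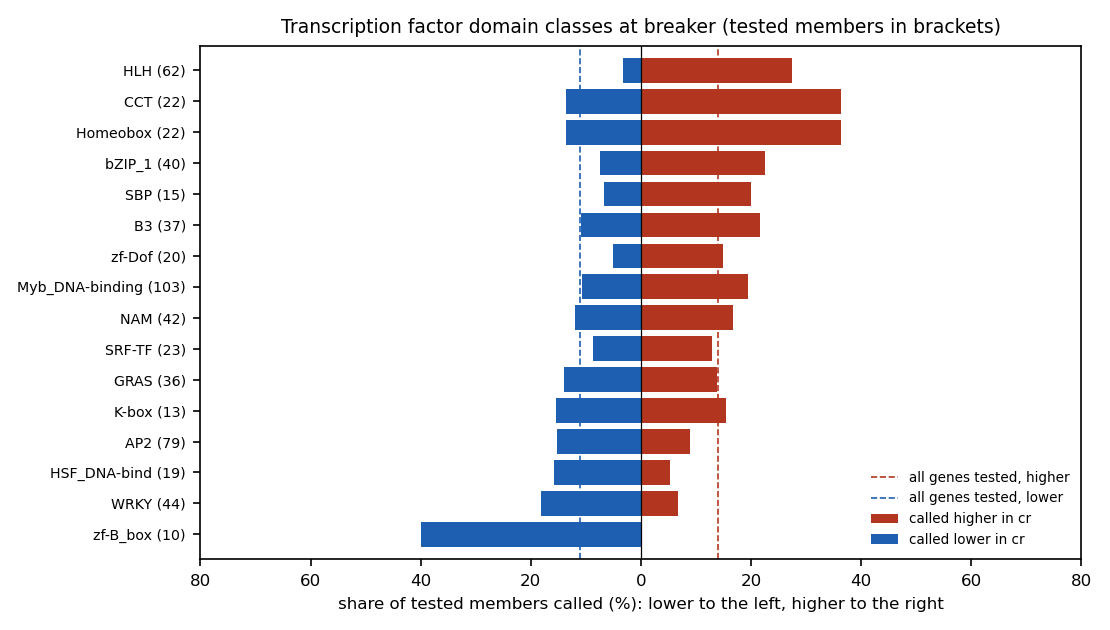
Bars give the share of tested genes of each transcription factor domain class called higher (red, right) or lower (blue, left) in cr at breaker, with the number tested in brackets and dashed lines at 14.0% and 11.0%, the shares over all genes tested. HLH, CCT and Homeobox classes reach farthest past the right line, though CCT and Homeobox also pass the left, at 13.6% lower each. B-box zinc fingers, with 4 of 10, reach farthest past the left. Other classes pass a line by less, among them bZIP_1 (22.5% higher) and WRKY (18.2% lower).

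Some of the largest differences were in genes with counts in 1 genotype alone at breaker. Solyc12g150108, described as a zinc finger BED domain protein, had 0 counts in all WT libraries of both stages and 24.8, 34.8 and 28.1 CPM in cr, at least 538-fold higher against a floor of 3 counts over the WT group. It lies on chromosome 12, 38102907 to 38104858, plus strand. The neighbouring feature, at 38106953 to 38113184 on the same strand and with no Solyc identifier, likewise had 0 counts in WT and 1106 in cr at breaker, at least 364-fold higher. Solyc04g081700 and Solyc01g066790, both of unknown function, had 0 counts in WT and 287 and 126 in cr at breaker, at least 94.5-fold and 41.5-fold higher, with 6 counts each in WT at mature green. In the opposite direction a feature without a Solyc identifier on chromosome 1, at 48848943 to 48852724 and named here after its values were seen, had 2143 counts in the WT breaker libraries and 1 in those of cr, and 1864 and 0 at mature green. CBF1 (Solyc03g026280), a factor of cold response, differed between the stages. It had 103 counts in WT and 0 in cr at breaker, at least 34.8-fold lower in cr, and 87 in each genotype at mature green (interaction adjusted p = 0.0456).

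Among described genes of at least 3 log2 CPM, the highest ratios included a cytochrome P450, Solyc07g055460, with 2.20, 1.40 and 1.09 CPM in WT and 29.3, 37.5 and 30.9 in cr (4.37 ± 0.37, adjusted p = 8.81e-06). A nucleotide-sugar transporter, Solyc01g009830, had 0.774, 1.28 and 2.60 CPM in WT and 33.9, 26.7 and 18.1 in cr (4.08 ± 0.34, adjusted p = 8.59e-06), and a wall-associated DUF642 protein, Solyc08g067030, had 2.56, 2.63 and 4.18 CPM in WT and 59.6, 44.1 and 52.7 in cr (4.06 ± 0.23, adjusted p = 6.55e-07). Phosphoglycerate dehydrogenase Solyc03g123830, which starts serine synthesis, had 43.3, 49.1 and 57.2 CPM in WT and 222, 245 and 244 in cr (2.25 ± 0.15, adjusted p = 2.45e-06). The lowest ratios included a pair of methylesterases that resemble a salicylic acid-binding protein. Solyc02g065260 had 252, 521 and 301 CPM in WT and 1.98, 18.7 and 12.5 in cr (-5.02 ± 0.57, adjusted p = 6.96e-05), and its near neighbour Solyc02g065240 had 104, 69.1 and 36.2 CPM in WT and 3.04, 7.13 and 5.68 in cr (-3.73 ± 0.43, adjusted p = 7.01e-05). The MORC-type ATPase Solyc06g071580, of a family known for gene silencing, had 26.5, 24.1 and 30.8 CPM in WT and 1.98, 1.18 and 1.14 in cr (-4.23 ± 0.24, adjusted p = 6.55e-07). The DCD domain gene Solyc09g074380 had 39.7, 31.8 and 31.8 CPM in WT and 2.84, 2.09 and 1.65 in cr (-3.96 ± 0.18, adjusted p = 1.26e-07). At mature green both were lower in cr too (-3.29 and -4.29, adjusted p = 1.47e-05 and 4.14e-08).

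At mature green, where the comparison shares no library with breaker, 853 genes (4.34%) were called, 338 higher (1.72%) and 515 lower (2.62%). Both stages called 439 genes, which is 8.91% of the breaker calls and 51.5% of the mature green calls, and 329 of them had the same direction. The test of the difference between stages called 2585 genes (13.1%), 1677 where cr stood relatively higher at breaker (8.53%) and 908 where it stood relatively lower (4.62%). Of the 2760 genes higher at breaker 1379 were also called in that test, and of the 2165 lower 744 were.

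In the interaction 19 of 50 histones were higher, with none lower, beside 8.53% and 4.62% of all genes tested. The H3 gene Solyc10g008910 went from -0.36 at mature green to 1.22 at breaker (interaction adjusted p = 0.00227). Small heat shock proteins had 9 of 21 lower and none higher, large chaperones had 17 of 36 lower and 1 higher, and the plastid gene Solyc03g082420 stood at 0.56 and -2.35 (adjusted p = 0.00295). PDS and ZDS stood at 0.19 and 0.04 at mature green and were relatively lower at breaker (interaction adjusted p = 0.00158 and 0.00156). CEL2 was relatively lower at breaker (-1.22 and -3.34, interaction adjusted p = 0.0335), whereas EXP1 had been further below WT at mature green (-2.11, interaction adjusted p = 0.0345). TBG6 stood below WT at mature green (-1.34) and overlapped with WT at breaker (interaction adjusted p = 0.00992). For PG2A, LOXB, LOXC and E4 the interaction did not pass (adjusted p = 0.822, 0.773, 0.252 and 0.629). GAME11 changed sign between stages, from -0.63 (adjusted p = 0.0333) to 1.65, as did the glucanase Solyc04g016470, from -1.04 to 2.18 (interaction adjusted p = 8.25e-05 and 1.2e-05). Phosphoribulokinase was higher in cr at both stages (1.0 and 1.51), and its interaction did not pass (adjusted p = 0.0835).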

How the data were processed

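RNA-seq libraries of tomato pericarp, 12 in all, were sequenced on a NovaSeq 6000, per the labels. The deposited tables give raw read counts per gene and FPKM values made by the authors. The submitters' processing notes name the build SL4.0 and, with no role given, edgeR 3.22.5, DESeq2 1.20.0, HISAT2 2.0.5, fastp 0.23.1 and featureCounts 1.5.0-p3. The strand setting and the treatment of multimapped reads were not given in the sources used here. The deposited FPKM used a library total that was 0.885 to 1.08 times the sum of counts, so they carry a scaling between libraries.

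Counts were taken with column names matched to sample titles. Features were kept by edgeR's filterByExpr (minimum count 10, total 15), which left 19664 of 35882 with 99.9% of counts, and 10346 had no count. TMM factors and 1 quasi-likelihood fit over the 4 groups and 12 libraries were used (R 4.3.3, edgeR 4.0.16, limma 3.58.1), with contrasts for breaker, mature green and their difference, and Benjamini-Hochberg adjusted p under 0.05. The SE is the log2 difference divided by the root of F. CPM were computed with TMM-scaled totals. Tests on simulated counts for the breaker comparison over 19403 genes recovered 16 of 66 genes changed 1.5-fold, 40 of 67 changed 2-fold and 55 of 65 changed 4-fold, and called 4 of 19205 unchanged genes. In the simulation all other genes had the same mean in every group, and no library was made to lie apart. Far fewer genes were changed than were called in the data, so these rates do not carry over to the real comparison. Tables were handled with Python 3.11.15, pandas 2.3.3 and matplotlib 3.10.9.

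Lists were matched on the deposited gene descriptions or written by gene name, and domain classes came from the deposited family column, which holds protein domains as well as transcription factors. The members and lists were chosen with earlier results of these data known. Named genes were the members of the ripening lists, up to 10 described, called genes of largest difference in each direction at a mean of at least 3 log2 CPM with no overlap between the breaker groups, up to 3 called genes of each list and 2 of each domain class per direction by the same order, and genes with at least 100 counts in 1 breaker group and none in the other. RIN is not analysed here. An ethylene synthesis gene is not reported here. Alternatives were DESeq2 1.42.0, other scalings, filters and thresholds, limma on log2 FPKM with pseudocounts of 1 and 0.1, the replicate number as a block, the breaker libraries alone and each library left out. Depths were 17703054 to 19426192 counts, and counting error was small beside the spread between replicates (chi-square per degree of freedom 9.57 to 36.5).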

Additional observations from a re-analysis of the deposited data

Results flagged for a closer look

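Values here are the cr minus WT difference at breaker minus that at mature green, on the log2 scale, for named genes whose difference between stages passed the interaction test of edgeR (adjusted p under 0.05). Over all genes 2585 passed. A positive value means that cr stood relatively higher at breaker. What moves the genes between stages was not tested.

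Among ripening regulators the interaction was 2.77 for GLK2, -0.76 for FUL1 and -0.38 for TAGL1. Softening genes gave -2.12 for CEL2, 1.13 for EXP1, 1.44 for TBG6 and 3.07 for MAN4a. Carotenoid genes gave -0.53 for DXS1, -0.81 for PDS, -0.92 for ZDS and -1.16 for CHYB2, and the aroma gene BCAT1 gave -2.02. The flavonoid gene CHI gave 1.96, and glycoalkaloid genes gave 1.75 for GAME1, 2.28 for GAME11 and 2.43 for GAME12.

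In photosynthesis the values were 3.08 for antenna gene Solyc03g005760, 1.63 for photosystem I subunit Solyc06g074200 and 2.55 for RuBisCO gene Solyc02g063150. Chlorophyll synthesis gave -1.39 for Solyc04g015750 and -0.97 for Solyc07g054210. Histones Solyc10g008910 and Solyc11g072860 gave 1.59 and 1.61, CMT2 gave 1.06, tubulin Solyc04g077020 gave 0.98, kinesin Solyc10g054080 gave 1.45 and cyclin Solyc12g088530 gave 1.82. Heat shock genes gave -3.41 for Solyc05g014280, -2.92 for Solyc03g082420, -2.35 for Solyc08g062340, -2.35 for Solyc11g020040 and -1.02 for the factor Solyc02g090820.

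Wall genes gave 4.12 for Solyc07g009380, 2.79 for Solyc06g083580, -1.84 for Solyc08g082170, 2.06 for Solyc03g123630 and 2.17 for expansin Solyc02g088100. Surface genes gave 5.09 for Solyc03g121180, 4.21 for Solyc05g055400, 3.73 for Solyc03g117800 and 3.92 for Solyc10g075070, and defence genes gave 4.77 for Solyc02g079500, 2.79 for Solyc09g090980, 2.82 for Solyc08g080650 and 3.216 for Solyc04g016470. WT replicate 3, which held seed storage transcripts, was the highest WT breaker library for all 4 surface genes. The cr replicate 1, with fewer such transcripts, was the highest cr breaker library for them. The mature green WT replicate 3, with 1253 vicilin counts, enters every value given here. Metabolic genes gave 1.19 for invertase Solyc09g010080, 1.58 and 1.27 for Solyc07g062530 and its kinase Solyc04g009910, 2.86 for Solyc03g123830 and -4.20 for Solyc02g038740. The late embryogenesis gene Solyc09g075210 gave 1.81.

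Transcription factors gave 1.59 for Solyc05g006650, -1.70 for Solyc10g079050, -1.34 for Solyc10g005080, -1.62 for Solyc02g089500 and 2.37 for Solyc03g113620. Other genes gave -3.21 for Solyc02g065240, 2.07 for Solyc07g055460, 4.04 for Solyc01g009830 and 3.59 for Solyc08g067030. For CBF1 (Solyc03g026280), with 0 counts in cr at breaker, and Solyc04g081700, with 0 counts in WT, the fitted values of -8.17 and 4.26 depend on the prior count and give no size.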

How the results depend on the processing

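The breaker count was 4925 and stayed within 1.5 times of that under every other scaling, filter and tool tried (3712 with the 6 breaker libraries alone to 5406 with DESeq2) and with any library left out (3543 without cr breaker replicate 1 to 4979 without WT mature green replicate 3). At an adjusted p under 0.01 it was 2680 (1584 higher, 1096 lower), and with a log2 difference of at least 1 it was 1899. At mature green DESeq2 called 1452 genes against 853, and leaving out a library gave 243 (WT mature green replicate 3) to 1183 (cr breaker replicate 1). With no factors 78.7% of the interaction calls were higher against 64.9%, and with upper quartile factors 73.3%. Deviations from the group mean in same-numbered breaker libraries of the 2 genotypes had correlations of 0.0494, 0.0799 and -0.0121, and other pairs ran from -0.0888 to 0.0333. With 3 libraries a group these values cannot show whether same-numbered libraries share a plant or a day. A fit with the replicate block called 4358 genes at breaker, 603 at mature green and 2044 in the interaction. Of the 125 genes named with a test, 103 were called, none reversed under an alternative, and 16 lost their call under at least 1, of which 8 did so under another scaling, DESeq2, the replicate block or the fit to the 6 breaker libraries alone; LCYB2 and the chitinase Solyc10g017980 lost theirs with limma on FPKM. The block ended the calls of E8, EIL2 and AAT1 (adjusted p = 0.0618, 0.054 and 0.0502). Depth limits the low genes, such as GLK2 and LCYB2.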
